A study of Mus musculus with 12 samples.

Results

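Transcripts for glucose uptake, glycolysis and lactate handling were followed through 12 RNA-seq libraries of mouse spermatogonia. The genes were chosen by name: 32 genes encoding the glucose transporters, the glycolytic enzymes and their regulators, the lactate dehydrogenases, the pyruvate dehydrogenase kinases, the monocarboxylate transporters and the hypoxia regulator Hif1a. All 32 were found among the 55385 genes of the deposited table, on 33 rows, because Aldoa has a second row with values close to 0. Reads were summarised by the authors as TPM (transcripts per 1000000), a share of each library corrected for transcript length. Levels of different genes can therefore be set side by side within a library, but a bias from the library kit was not tested. TPM keeps no record of how many reads lie behind a value, so the depth is unknown and no counting interval is given.

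The 12 libraries form 6 groups of 2, each library made from pooled sorted cells. WT Aundiff (undifferentiated spermatogonia, sorted as E-Cadherin+ CD9high KIT-) and WT Adiff (differentiating spermatogonia, E-Cadherin+ CD9medium KIT+) came from untreated C57BL/6 males 2 to 3 months old, with 100000 to 150000 cells a library and a TruSeq stranded kit for polyadenylated RNA. PRC1cKO mice carry Ring1-/-; Rnf2 F/-; Ddx4-Cre, a germline deletion of the catalytic core of Polycomb repressive complex 1, and PRC1ctrl littermates carry Ring1-/-; Rnf2 F/+; Ddx4-Cre, so both lack Ring1 and both carry the germ-cell Cre. Their Aundiff, on a mixed C57BL/6 X FVB/NJ background, were taken untreated at 2 months, from about 7000 cells a library with the Smart-Seq2 method. Further PRC1ctrl and PRC1cKO Aundiff came from males given about 30 daily injections of Win18,446 (40 µg/µl in 50 µl DMSO) from 1 month of age, with 100000 to 150000 cells and the TruSeq kit. Win18,446 blocks retinoic acid synthesis and thereby spermatogonial differentiation. The untreated and the treated PRC1 mice therefore differ in treatment, cell number and kit together, and these cannot be told apart.

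Glycolysis splits glucose into pyruvate in the cytosol and yields ATP without oxygen. Lactate dehydrogenase turns pyruvate into lactate, which monocarboxylate transporters carry across the membrane, whereas the pyruvate dehydrogenase complex sends pyruvate into the mitochondrion and is switched off by pyruvate dehydrogenase kinases. HIF1A is a transcription factor that raises many of these genes when oxygen is low. Stem spermatogonia are reported to favour glycolysis, and in the seminiferous tubule Sertoli cells take up glucose and supply lactate to the later germ cells. Spermatids use their own isozymes of several glycolytic enzymes, encoded by separate genes.

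The labels were first compared with the sorted and deleted genes. Kit, the receptor used for the sort, was listed at 6.38 and 6.96 TPM in WT Aundiff and 247 and 245 in WT Adiff, and Gfra1, a receptor of the stem cell fraction, at 70.5 and 68.1 in WT Aundiff and 3.55 and 4.06 in WT Adiff. Zbtb16, which encodes the PLZF factor of undifferentiated spermatogonia, was listed at 131 and 167 TPM in WT Aundiff and 32.5 and 39.1 in WT Adiff. In the PRC1 Aundiff libraries Zbtb16 lay between 4.93 and 14.2 TPM at 2 months, below WT Adiff, and between 99.1 and 216 after Win18,446. Gfra1 lay between 7.18 and 23.6 TPM at 2 months and between 14.7 and 16.1 after Win18,446, below WT Aundiff in all of them. Ring1 was near 0 in all PRC1 libraries (at most 0.25 TPM), as the shared Ring1-/- genotype states, against 8.61 to 19.9 TPM in WT. Rnf2, the gene that separates PRC1cKO from PRC1ctrl, was listed at 28.3 and 47.6 TPM in PRC1ctrl and 56.7 and 67.5 in PRC1cKO at 2 months, and at 78.1 and 67.2 in PRC1ctrl and 86.2 and 93.1 in PRC1cKO after Win18,446. Rnf2 was thus not lower under the PRC1cKO label in either pair. A TPM over the whole gene does not separate the floxed exon, so the groups are called here the libraries labelled PRC1cKO and PRC1ctrl. The paper, citing earlier work, reports a nearly complete loss in PRC1cKO germ cells of the histone mark that this complex deposits. It also reports a global loss of a second Polycomb histone mark in sorted PRC1cKO Aundiff. Kit was listed at 1.64 and 3.30 TPM in PRC1ctrl and 10.7 and 14.9 in PRC1cKO at 2 months, a difference that did not pass the test (limma adjusted p = 0.113). The paper's own test, on read counts, called Kit upregulated in PRC1cKO at 2 months. After Win18,446 Kit was higher in PRC1cKO, at 6.48 and 8.15 TPM in PRC1ctrl and 20.4 and 22.0 in PRC1cKO (adjusted p = 0.00263).

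Transcripts used as markers of other cells were also listed in every library, and which cells they came from was not tested. Over 7 spermatid markers (Prm1, Prm2, Tnp1, Tnp2, Acrv1, Spaca1 and Odf1), the summed level was 796 and 876 TPM in WT Aundiff, 543 and 729.5 in WT Adiff, 760.1 and 1763 in PRC1ctrl and 64.7 and 58.7 in PRC1cKO at 2 months, and 140.1 and 128 in PRC1ctrl and 25.8 and 23.5 in PRC1cKO after Win18,446. In PRC1cKO most of the spermatid sum was Tnp1 and Spaca1, at 56.4 and 6.74 TPM in replicate 1 at 2 months. Prm1, Prm2, Tnp2, Acrv1 and Odf1 were each below 1 TPM in all PRC1cKO libraries. For 8 Sertoli cell markers the sum lay between 14.6 and 65.0 TPM in all libraries. The Leydig cell sum over 6 markers reached 397 TPM in replicate 1 of PRC1ctrl after Win18,446. In bulk samples such as these, fewer cells of a type and less RNA per cell cannot be told apart. Between 12422 and 16599 genes a library reached 1 TPM.

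The promoters of the members that moved most are shown first, with the core of the hypoxia response element in capitals (ACGTG or GCGTG, searched on both strands, so CACGT and CACGC are its reverse complements). Slc2a1, Ldha and Pdk1 had the largest falls from WT Aundiff to WT Adiff together with Slc2a3, and Hk2 and Slc16a1 the largest rises. Each window covers 250 bases before to 50 bases after an annotated start, 5′ to 3′ on the gene's strand, from RefSeq on GRCm38.p6. Ldha and Pdk1 have 2 windows each, of which the more upstream one is printed. In order they lie at chr4:119108495-119108794, plus strand, for Slc2a1, at chr7:46845554-46845853, plus strand, for Ldha, at chr2:71872974-71873273, plus strand, for Pdk1, at chr6:82774405-82774704, minus strand, for Hk2, and at chr3:104638414-104638713, plus strand, for Slc16a1.
Slc2a1: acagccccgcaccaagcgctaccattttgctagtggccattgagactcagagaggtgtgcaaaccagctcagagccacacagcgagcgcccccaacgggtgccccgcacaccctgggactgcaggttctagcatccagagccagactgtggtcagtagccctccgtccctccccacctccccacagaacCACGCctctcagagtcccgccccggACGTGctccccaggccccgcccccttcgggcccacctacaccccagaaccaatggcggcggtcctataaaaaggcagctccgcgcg
Ldha: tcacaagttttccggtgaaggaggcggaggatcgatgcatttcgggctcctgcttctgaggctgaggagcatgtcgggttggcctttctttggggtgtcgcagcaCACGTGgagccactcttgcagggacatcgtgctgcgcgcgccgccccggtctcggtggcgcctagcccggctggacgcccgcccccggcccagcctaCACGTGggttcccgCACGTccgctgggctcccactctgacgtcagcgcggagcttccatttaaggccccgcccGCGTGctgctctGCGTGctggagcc
Pdk1: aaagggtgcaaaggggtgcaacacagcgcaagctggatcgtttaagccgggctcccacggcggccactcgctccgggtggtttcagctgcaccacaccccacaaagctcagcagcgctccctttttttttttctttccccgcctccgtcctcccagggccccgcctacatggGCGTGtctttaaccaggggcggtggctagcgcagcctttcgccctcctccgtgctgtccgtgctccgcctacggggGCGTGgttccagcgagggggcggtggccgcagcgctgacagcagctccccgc
Hk2: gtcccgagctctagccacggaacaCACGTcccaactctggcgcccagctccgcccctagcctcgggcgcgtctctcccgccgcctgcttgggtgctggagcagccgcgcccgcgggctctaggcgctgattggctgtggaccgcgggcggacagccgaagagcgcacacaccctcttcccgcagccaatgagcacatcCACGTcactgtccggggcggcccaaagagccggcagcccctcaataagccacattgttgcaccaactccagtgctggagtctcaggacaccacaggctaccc
Slc16a1: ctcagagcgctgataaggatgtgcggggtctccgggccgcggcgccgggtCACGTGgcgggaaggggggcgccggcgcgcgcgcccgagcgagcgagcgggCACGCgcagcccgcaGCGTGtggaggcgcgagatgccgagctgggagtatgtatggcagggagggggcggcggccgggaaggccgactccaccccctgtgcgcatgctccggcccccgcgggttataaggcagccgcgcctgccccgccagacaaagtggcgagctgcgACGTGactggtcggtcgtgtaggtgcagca

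The window of Ldha held 7 matches counted over both strands, those of Slc2a1, Pdk1 and Hk2 2 each, and that of Slc16a1 5. A CACGTG, the E-box that MYC and related factors recognise, contains the core on both strands and counts as 2 matches, and the Ldha window had 2 such E-boxes and the Slc16a1 window 1. Promoter windows were held for 31 of the 32 members. At least 1 window held the core in 27 of these 31 genes (87.1%), against 46.73% of all 27025 genes, and the E-box in 7 (22.58%) against 8.09%. A gene with several windows has more chances of a match. Counted by window, 37 of the members' 50 windows (74.0%) held the core, against 43.77% of all windows, and 14.0% held the E-box, against 7.15%. The windows of the members were also richer in G and C, with a median of 59.66% against 52.67% over all 32851 windows, and the part of this in the difference was not tested. The core was present in 10 of 11 members with a window that fell in WT, in all 5 that rose and in 11 of 13 that did not pass the test, so it did not separate these classes. Gpi1, Tpi1, Pgam2 and Eno2 held no match in their windows. A match is only a string of letters and says nothing of binding.

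Where 2 pairs of values are set against each other, the first pair is WT Aundiff or PRC1ctrl, replicates 1 and 2, and the second WT Adiff or PRC1cKO. In WT, both glucose transporter genes, the pyruvate kinase gene, both lactate dehydrogenase genes and Pdk1 were lower in Adiff than in Aundiff, while Pdk2 and Pdk3 were higher. Of the 30 members tested, 12 fell and 5 rose at an adjusted p under 0.05 (limma on log2(TPM + 1), Benjamini-Hochberg over 15470 genes), where 14.7% of all genes tested fell and 23.4% rose. Past a 2-fold change as well, 9 members fell and 1 rose, against 9.24% and 11.1% of all genes. The median log2 fold change was -0.18 over the members and 0.15 over all genes tested, and -0.34 and -0.0021 after median-of-ratios scaling. Eno2 and Pdk4 did not reach the level required for testing, with at most 0.57 and 0.50 TPM in any of the 12 libraries. The summed level of all 32 members was 4866 and 5409.8 TPM in Aundiff and 3917 and 4259 in Adiff, so the pathway's share of the library was lower in both Adiff libraries.

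Both facilitative glucose transporters fell. Slc2a1, which encodes the widely expressed GLUT1 (ENSMUSG00000028645, chr4:119108711-119137983 on GRCm38), was listed at 61.4 and 75.5 TPM in Aundiff and 11.3 and 13.8 in Adiff. Its mean was 5.46 times lower in Adiff, a log2 fold change of -2.36 (SE 0.18, adjusted p = 0.00101). Slc2a3, which encodes the high-affinity GLUT3, was listed at 24.9 and 28.9 TPM in Aundiff and 6.86 and 8.45 in Adiff, a log2 fold change of -1.69 (SE 0.19, adjusted p = 0.00227). For both genes the 2 Adiff libraries lay below the 2 Aundiff libraries. The sum of the pair fell from 86.4 and 104 to 18.1 and 22.2 TPM, while Slc2a1 still made up 62.2% and 62.0% of it in Adiff, after 71.1% and 72.3% in Aundiff.

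The hexokinases, which trap glucose in the cell by phosphorylation, moved in opposite directions. Hk1, the enzyme of most tissues, was listed at 77.8 and 96.8 TPM in Aundiff and 39.3 and 48.7 in Adiff, a log2 fold change of -0.97 (SE 0.18, adjusted p = 0.00847). Hk2, the inducible form, was listed at 15.1 and 16.0 TPM in Aundiff and 38.2 and 39.6 in Adiff, a log2 fold change of 1.27 (SE 0.15, adjusted p = 0.00258). Hk2 was the only member that rose past 2-fold. As a result Hk1 made up 83.7% and 85.8% of the summed hexokinase TPM in Aundiff and 50.7% and 55.1% in Adiff. The sum itself was 92.9 and 113 TPM in Aundiff and 77.5 and 88.3 in Adiff. Gpi1, which turns glucose 6-phosphate into fructose 6-phosphate, was among the most abundant members, at 918 and 1042 TPM in Aundiff and 718 and 706 in Adiff. Its log2 fold change of -0.46 (SE 0.11, adjusted p = 0.0237) was not called without Aundiff replicate 1 (adjusted p = 0.091) or without Aundiff replicate 2 (0.213).

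At the phosphofructokinase step, the main point of control, the platelet and muscle isozymes fell and the liver isozyme did not pass the test. Pfkp was listed at 15.9 and 19.8 TPM in Aundiff and 4.82 and 6.42 in Adiff, a log2 fold change of -1.51 (SE 0.23, adjusted p = 0.00487). Pfkm was listed at 13.6 and 15.8 against 7.82 and 9.36 TPM, a log2 fold change of -0.71 (adjusted p = 0.0343). The Pfkm call was lost without Aundiff replicate 1 (adjusted p = 0.0958), without Aundiff replicate 2 (0.182) and without Adiff replicate 1 (0.0808). Pfkl was low throughout, at 0.12 to 9.17 TPM over the 12 libraries, with a log2 fold change of 0.51 (95% interval -0.21 to 1.22). Among the bifunctional PFKFB enzymes, which set the level of the activator fructose 2,6-bisphosphate, Pfkfb3, the form with the strongest kinase activity, was listed at 10.6 and 11.8 TPM in Aundiff and 2.58 and 5.63 in Adiff. It fell by 1.32 on the log2 scale (SE 0.33, adjusted p = 0.0223), a call lost without Aundiff replicate 1 (adjusted p = 0.0686) or replicate 2 (0.0895). Pfkfb1, Pfkfb2 and Pfkfb4 were listed at 1.45 to 7.22 TPM in the WT libraries and none passed the test, Pfkfb2 with 6.32 and 4.05 TPM in Aundiff and 3.92 and 4.91 in Adiff.

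The enzymes from aldolase to phosphoglycerate mutase did not pass the test in WT. Aldoa, the main aldolase, was listed at 401 and 435 TPM in Aundiff and 329.5 and 413 in Adiff, with a log2 fold change of -0.18 (95% interval -0.53 to 0.17), and Aldoc, the other aldolase, lay between 96.5 and 105 TPM in all 4 WT libraries. Tpi1, which interconverts the triose phosphates, was listed at 23.1 and 37.4 against 26.2 and 27.6 TPM, with an interval of -0.71 to 0.45. These intervals leave out falls of the size seen for Slc2a1, Ldha and Pdk1. Gapdh was the most abundant member in every WT library, at 1236 and 1392 TPM in Aundiff and 1366 and 1548 in Adiff, with a log2 fold change of 0.15 (95% interval -0.15 to 0.44). Pgk1, which makes the first ATP of the pathway, was listed at 19.7 and 18.6 against 30.5 and 23.6 TPM (log2 fold change 0.47, adjusted p = 0.0905), and Pgam1, the main phosphoglycerate mutase, at 346 and 358 against 432 and 435 TPM (log2 fold change 0.30, adjusted p = 0.0695). For Pgk1 and Pgam1 both Adiff libraries lay above both Aundiff libraries without passing the threshold, which Pgk1 passed without Adiff replicate 2 (adjusted p = 0.0334).

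Several of these levels are uncertain because near-identical pseudogenes could take their reads. Of the 100-base words in the annotated transcripts of Pgk1, 51.7% also occur in other genes, as do 33.9% of those of Pgam1, 20.9% of those of Gapdh and 20.4% of those of Eno1. The 82 Gapdh pseudogenes that share such words were together listed at 722 and 815 TPM in Aundiff and 810.1 and 856 in Adiff, so Gapdh and these copies sum to 1957 and 2207 against 2176 and 2404 TPM. For Pgk1 the copies held 8.56 and 9.87 TPM in Aundiff and 5.56 and 13.7 in Adiff. For Pgam1 they were listed at 0 in 3 of the 4 WT libraries and at 75.9 TPM in Adiff replicate 2. Pgk1 with its copies summed to 28.3 and 28.4 TPM in Aundiff and 36.1 and 37.3 in Adiff. With the copies summed into their genes, 12 members fell and 6 rose in WT, the additional one being Pgam1 (log2 fold change 0.41, adjusted p = 0.0438).

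Eno1 and Pkm, at the last steps to pyruvate, fell. Eno1, the main enolase, was listed at 624 and 725 TPM in Aundiff and 271 and 309.6 in Adiff, a log2 fold change of -1.21 (SE 0.13, adjusted p = 0.00204). Eno3, the muscle enolase, rose from 15.5 and 14.6 to 24.2 and 32.5 TPM (log2 fold change 0.86, adjusted p = 0.018), a call lost without Aundiff replicate 1 (adjusted p = 0.0618) or replicate 2 (0.0758). Eno1 still made up 91.8% and 90.5% of the summed enolase TPM in Adiff. Pkm, the pyruvate kinase gene, was listed at 563 and 638 TPM in Aundiff and 209.8 and 229 in Adiff, a mean 2.74 times lower (log2 fold change -1.45, SE 0.12, adjusted p = 0.00123). Its M1 and M2 isoforms are not separated in these values. Pgam2, the muscle mutase, was a small part of the mutase sum (3.39% and 4.40% in Aundiff and 2.10% and 1.95% in Adiff) and is described with the testis isozymes.

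Both lactate dehydrogenase genes fell, Ldha the more. Ldha (ENSMUSG00000063229, chr7:46841475-46855627), whose subunit favours making lactate, was listed at 64.5 and 70.3 TPM in Aundiff and 16.9 and 16.6 in Adiff, a mean 4.03 times lower (log2 fold change -1.95, SE 0.15, adjusted p = 0.000938). Ldhb, whose subunit favours using lactate, was listed at 27.4 and 26.0 TPM in Aundiff and 12.2 and 12.2 in Adiff (log2 fold change -1.07, SE 0.16, adjusted p = 0.00506). Their sum fell from 92.0 and 96.3 to 29.1 and 28.7 TPM, and the Ldha share of it was 70.2% and 73.0% in Aundiff and 58.0% and 57.6% in Adiff. Slc16a1, which encodes the lactate and pyruvate transporter MCT1, moved the other way, from 27.0 and 27.2 TPM in Aundiff to 51.5 and 51.9 in Adiff (log2 fold change 0.91, SE 0.14, adjusted p = 0.00513). Slc16a3, the MCT4 exporter of glycolytic cells, was listed at 5.06 and 5.36 against 3.59 and 8.05 TPM, with overlapping groups (95% interval -0.79 to 0.90).

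The pyruvate dehydrogenase kinases exchanged places. Pdk1 (ENSMUSG00000006494, chr2:71873224-71903858), which blocks pyruvate oxidation and is a classic HIF1 target, had the largest fall of any member, from 118 and 102 TPM in Aundiff to 23.4 and 16.1 in Adiff (log2 fold change -2.44, SE 0.21, adjusted p = 0.00122). Pdk3 was listed at 90.6 and 82.9 TPM in Aundiff and 131 and 123 in Adiff (log2 fold change 0.54, adjusted p = 0.0186), and Pdk2 at 7.23 and 9.51 against 12.9 and 17.1 TPM (log2 fold change 0.77, adjusted p = 0.0415). Both rises were small, and neither call held under median-of-ratios scaling (adjusted p = 0.0689 for Pdk3 and 0.0842 for Pdk2). Neither held without Aundiff replicate 1 (adjusted p = 0.074 for Pdk3 and 0.199 for Pdk2) or without Aundiff replicate 2 (0.124 and 0.0669), and Pdk2 also failed without Adiff replicate 2 (0.116). The summed kinase TPM was 216 and 195 in Aundiff and 167 and 156 in Adiff. Within it Pdk1 had 54.7% and 52.4% in Aundiff and 14.0% and 10.3% in Adiff, and Pdk3 42.0% and 42.6% against 78.2% and 78.8%. Hif1a itself did not pass the test, at 31.3 and 24.2 TPM in Aundiff and 25.4 and 25.2 in Adiff, with a log2 fold change of -0.12 (95% interval -0.55 to 0.32).

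The genes with the most lasting calls in WT were Slc2a1, Slc2a3, Hk2, Pfkp, Ldha, Ldhb and Pdk1, which passed the threshold under all 14 alternatives tried. Hk1, Eno1, Pkm and Slc16a1 passed under 13 and failed only when all 12 libraries were fitted together (adjusted p = 0.0988, 0.372, 0.124 and 0.102). Without Aundiff replicate 1, or without Aundiff replicate 2, 2 members were called higher in place of 5. Among markers of other cells, 3 of 7 spermatid markers fell in Adiff, where 14.7% of all genes did, and the Sertoli cell sum was 26.4 and 27.0 TPM in Aundiff and 15.6 and 14.6 in Adiff. Of the 8 Sertoli markers 4 reached the level required for testing and 2 of them fell, against the same 14.7%, Wt1 from 9.37 and 10.9 to 5.24 and 5.39 TPM and Rhox5 from 7.66 and 5.62 to 2.56 and 2.00, while Sox9 and Amh were at most 1.18 TPM in the WT libraries. Their part in the falls was not tested.

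**Figure D1:**
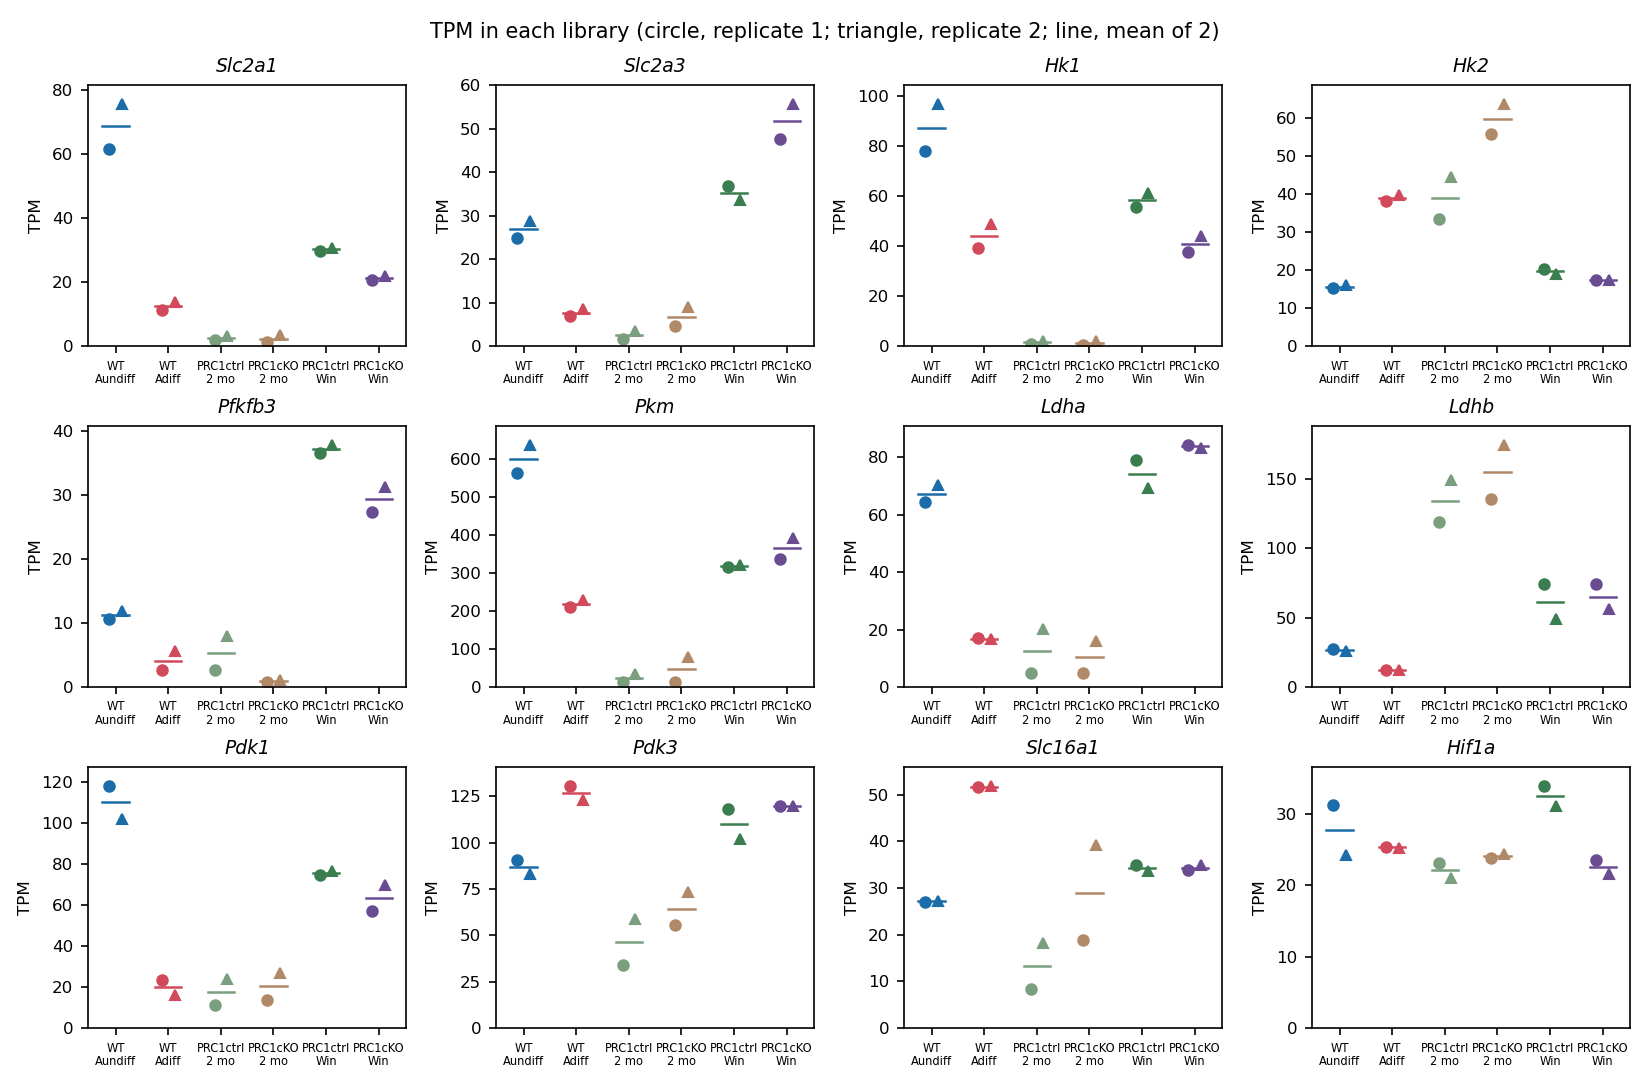
TPM of 12 members in each of the 12 libraries, by group, each panel on its own linear axis from 0, with circles for replicate 1, triangles for replicate 2 and a line at the mean of 2. Slc2a1, Ldha and Pdk1 stand high in WT Aundiff and low in WT Adiff, Hk2 and Slc16a1 the reverse, and most panels are lowest in the untreated PRC1 libraries, where Ldhb is highest.

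**Figure D2:**
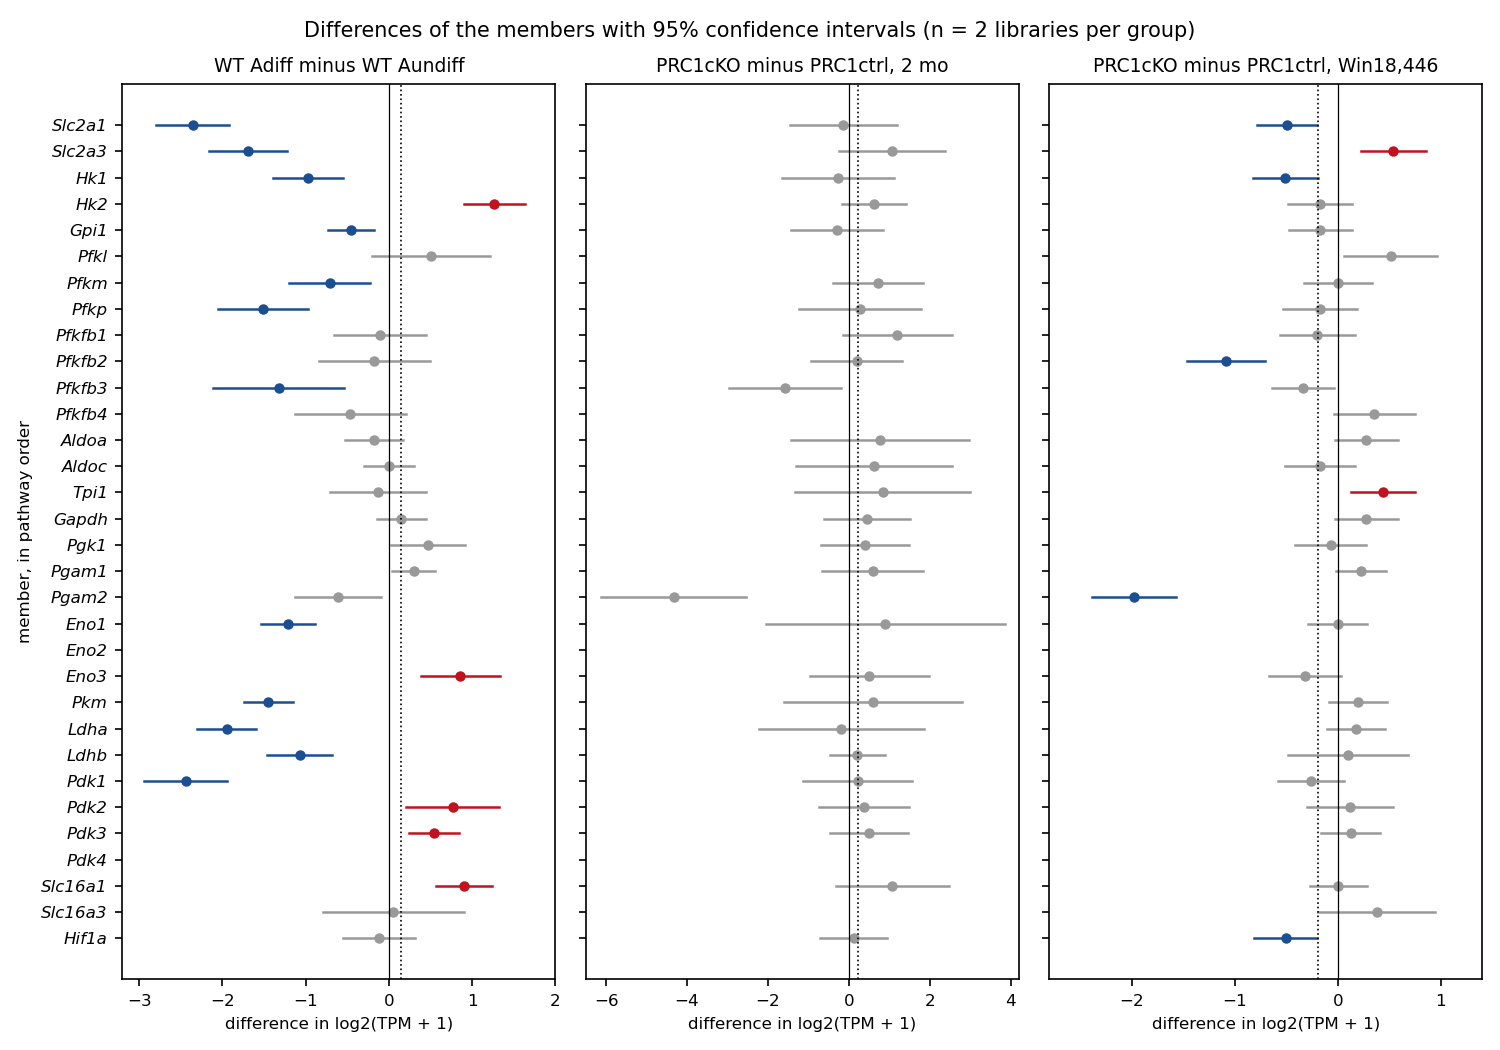
Difference in log2(TPM + 1) with its 95% confidence interval for each member tested, in pathway order, in the WT comparison (left), PRC1cKO against PRC1ctrl at 2 months (middle) and after Win18,446 (right). Blue and red mark members lower or higher at an adjusted p under 0.05, grey the others, and the dotted line is the median of all genes tested. In WT 12 members are blue and 5 red, at 2 months none is coloured and the intervals are wide, and after Win18,446 5 are blue and 2 red.

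Other genes around the pathway were examined in lists of the neighbouring pathways. Of 11 tested genes among the other hexose and lactate transporters and their chaperones, 2 rose and 4 fell in WT Adiff, a median log2 fold change of -0.0042 against 0.15 over all genes. These and the counts of the next lists stand beside the 23.4% of all genes that rose and 14.7% that fell, and with so few genes in a list nothing particular to it is read from them. Slc16a10, an aromatic amino acid transporter of the monocarboxylate family, rose by 2.35 on the log2 scale from 2.60 and 2.49 to 17.2 and 17.1 TPM. Emb, the embigin chaperone of monocarboxylate transporters, fell from 16.5 and 13.1 to 3.34 and 3.68 TPM (log2 fold change -1.80, adjusted p = 0.00265), and the sodium-glucose transporter Slc5a1 and the hexose transporter Slc2a12 fell by 1.59 and 1.45 on the log2 scale from low levels. Of 5 other isozymes tested, 2 rose, Adpgk, an ADP-dependent glucokinase (log2 fold change 1.01, adjusted p = 0.00536), and Bpgm, which makes 2,3-bisphosphoglycerate (log2 fold change 0.92, adjusted p = 0.00829).

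Among the genes of pyruvate entry into the mitochondrion, 3 of 10 tested rose and 3 fell, against 23.4% and 14.7% of all genes (median log2 fold change -0.043). Pdha1, the catalytic subunit of pyruvate dehydrogenase, fell from 47.5 and 47.0 to 17.9 and 15.3 TPM (log2 fold change -1.46, adjusted p = 0.002). The mitochondrial pyruvate carrier genes Mpc2 and Mpc1 fell by 0.99 and 0.73 on the log2 scale, and Pdhx, a structural subunit of the complex, rose by 0.80. In the pentose phosphate branch 3 of 10 rose and 2 fell (median 0.18). G6pdx, its first enzyme, fell from 35.6 and 36.9 to 18.6 and 16.1 TPM (log2 fold change -1.02, adjusted p = 0.00553), while the pentose isomerising enzymes Rpe and Rpia rose, Rpe from 8.60 and 8.79 to 37.7 and 32.8 TPM and Rpia by 0.79 on the log2 scale, and H6pd, which works in the endoplasmic reticulum, rose by 1.23. In the hypoxia list 4 of 18 rose and 3 fell (median 0.20), shares close to the 23.4% and 14.7% of all genes. Ddit4, a stress-induced inhibitor of mTORC1, fell from 102 and 128 to 5.87 and 5.47 TPM (log2 fold change -4.11, adjusted p = 0.000221) and the histone demethylase gene Kdm3a from 77.9 and 71.5 to 24.8 and 23.1 (log2 fold change -1.60), whereas Vhl, which marks HIF subunits for destruction, rose by 1.24 and the mitophagy gene Bnip3 by 1.01.

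Between PRC1ctrl and PRC1cKO at 2 months, no member passed the test in the unpaired fit. Of the 27 members that reached the level required, none was called higher, where 0.222% of 13953 genes were, and none lower, where 1.94% were; past 2-fold the shares of all genes were the same, 0.222% and 1.94%. At an unadjusted p under 0.05, 2 of the 27 members passed, Pgam2 and Pfkfb3, where 1985 of the 13953 genes did. The median log2 fold change was 0.46 over the members and 0.22 over all genes tested, and 0.19 and -0.034 after median-of-ratios scaling. Of the members, 21 of 27 had a positive difference, against 65.1% of all genes. Both values rest on single libraries. Without PRC1ctrl replicate 1 the members' median was -0.036 (0.085 over all genes) and 12 of 26 members were positive, against 57.2% of all genes. Without PRC1cKO replicate 2 the median was 0.037 and 14 of 26 were positive, whereas without PRC1ctrl replicate 2 the median was 0.90 and without PRC1cKO replicate 1 it was 0.70. The intervals were wide, with a median SE of 0.54 over the members against 0.18 in WT, and 0.13 after Win18,446. All these values come from fits that take the libraries as unpaired. With the replicate number as a block, 4 members were called higher at 2 months and 2 lower, which are named under the processing. The labels do not say that same-numbered libraries share an origin.

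The replicates of each label stood apart. Replicate 2 exceeded replicate 1 for 26 of 27 members in PRC1ctrl and 27 of 27 in PRC1cKO, by a median of 0.82 and 0.91 on the log2 scale, while over all genes 70.5% and 69.5% were higher in replicate 2. Eno1 had the widest gap on the log2 scale in PRC1ctrl and Pkm in PRC1cKO. Eno1 was listed at 22.7 and 218 TPM in PRC1ctrl and 63.4 and 283 in PRC1cKO, Pkm at 13.4 and 35.1 against 14.1 and 77.9, and Aldoa at 16.8 and 74.2 against 32.4 and 116. For these genes both replicate 1 libraries lay below both replicate 2 libraries, whichever the label. The summed level of the 32 members was 527 and 1152 TPM in PRC1ctrl and 697 and 1473 in PRC1cKO, several times below the 3708 to 5410 TPM of the libraries made with the TruSeq kit. The share of TPM from mitochondrial genes was 12.5% to 16.7% in these 4 libraries and 4.28% to 6.69% in the other 8.

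Markers of other cells and stages were also read in these 4 libraries. The Leydig cell sum was 1.04 and 1.21 TPM in PRC1ctrl and 21.0 and 48.0 in PRC1cKO. Of the 5 Leydig markers tested 1 was called higher, where 0.222% of all genes were. This was the steroidogenic enzyme gene Hsd3b1, listed at 0 and 0.37 against 8.74 and 6.63 TPM. All 5 were below 1 TPM in both PRC1ctrl libraries, so they reached the level required for testing only through PRC1cKO. Such a gene could enter only as higher, and this count is a description. The sum over 5 macrophage markers was 0.88 and 6.86 TPM in PRC1ctrl and 12.4 and 24.5 in PRC1cKO, with neither of the 2 tested called, and that over 6 markers of differentiating spermatogonia 226 and 194 against 533 and 513, with none of the 6 called. All 3 sums were higher in both PRC1cKO libraries, and within PRC1ctrl and PRC1cKO the Leydig and macrophage sums were higher in replicate 2. The sum over 12 markers of undifferentiated spermatogonia was lower in both PRC1cKO libraries, at 958 and 1229 against 456 and 536 TPM. Of these 12, 1 was called lower, where 1.94% of all genes were. Their median log2 fold change was -0.18, against 0.22 over all genes. No part of these marker sums was separated from the others. The part of all these markers in the members' differences was not tested.

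The glucose transporters were low at 2 months. Slc2a1 was listed at 1.80 and 3.10 TPM in PRC1ctrl and 1.11 and 3.51 in PRC1cKO, with overlapping groups. Slc2a3 was listed at 1.69 and 3.54 TPM in PRC1ctrl against 4.48 and 8.86 in PRC1cKO, both PRC1cKO libraries above both PRC1ctrl libraries, without passing the test (log2 fold change 1.07, 95% interval -0.23 to 2.37, adjusted p = 0.446). Hk1 was listed at 0.87 and 2.06 against 0.27 and 2.12 TPM and Hk2 at 33.4 and 44.5 against 55.9 and 63.7. Hk2 thus made up most of the listed hexokinase TPM here, 97.5% and 95.6% of the pair in PRC1ctrl and 99.5% and 96.8% in PRC1cKO. The Hk2 difference had an interval of -0.17 to 1.41. In the treated libraries of the same labels, made with the TruSeq kit, Hk1 instead had 68.4% to 76.3% of the pair. Kit, cell number and treatment differ together, so the Hk2 share is not read as a preference of these cells. Gpi1 was listed at 80.0 and 117 TPM in PRC1ctrl and 52.8 and 117 in PRC1cKO.

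Among the enzymes of the control step, Pfkm was listed at 0.31 and 1.31 TPM in PRC1ctrl and 1.37 and 2.50 in PRC1cKO, Pfkp at 3.20 and 9.64 against 5.23 and 9.62, and Pfkfb2 at 1.26 and 1.79 against 1.14 and 2.88. Pfkfb3 was listed at 2.60 and 7.90 TPM in PRC1ctrl and 0.71 and 1.09 in PRC1cKO, so both PRC1cKO libraries lay below both PRC1ctrl libraries, with a log2 fold change of -1.58 (95% interval -2.97 to -0.20, adjusted p = 0.282). Pfkfb1, the liver and muscle form, lay higher in both PRC1cKO libraries, at 1.13 and 2.37 against 3.29 and 7.82 TPM, without passing the test (adjusted p = 0.403). The Pfkfb3 share of the summed PFKFB TPM was 52.0% and 64.7% in PRC1ctrl and 13.1% and 9.16% in PRC1cKO.

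In the lower pathway, Gapdh was listed at 45.7 and 79.2 TPM in PRC1ctrl and 62.4 and 110.2 in PRC1cKO, Tpi1 at 2.81 and 17.6 against 8.87 and 22.1, and Pgk1 at 11.1 and 20.3 against 17.6 and 23.3. Pgam1 was listed at 65.2 and 133 against 96.9 and 204 TPM and Eno3 at 1.26 and 4.56 against 3.00 and 5.36. The groups overlapped for all 5. Ldhb, at 119 and 149 TPM in PRC1ctrl and 136 and 174 in PRC1cKO, was among the most abundant members, while Ldha was listed at 4.90 and 20.0 against 4.71 and 15.9. Ldhb thus made up 96.0% and 88.2% of the pair in PRC1ctrl and 96.6% and 91.6% in PRC1cKO, and its difference was bounded by -0.47 to 0.88. Pdk1 was listed at 11.1 and 23.8 against 13.8 and 26.7 TPM, Pdk2 at 0.80 and 2.01 against 1.53 and 2.59, and Pdk3 at 33.7 and 58.8 against 55.4 and 73.1. Slc16a1 was listed at 8.28 and 18.2 against 18.8 and 39.1 TPM, with both PRC1cKO libraries higher but an interval of -0.32 to 2.47. Hif1a was listed at 23.2 and 21.1 against 23.8 and 24.4 TPM, with a log2 fold change of 0.12 (95% interval -0.71 to 0.95).

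After Win18,446, 7 members passed the test, among them both glucose transporters, Hk1, Pfkfb2 and Hif1a. Of 30 members tested, 2 rose and 5 fell in PRC1cKO at an adjusted p under 0.05, where 5.87% of 16521 genes rose and 26.7% fell. Past 2-fold none rose and 2 fell, against 1.27% and 10.9% of all genes. The median log2 fold change was 0.0035 over the members and -0.19 over all genes tested, and the members' median lay between -0.065 and 0.017 when 1 library was left out. Median-of-ratios scaling moved both medians upward, to 0.24 and 0.028, and with it 9 members rose and 2 fell, where 15.4% of all genes rose and 18% fell. The summed level of the 32 members was 3814 and 3761 TPM in PRC1ctrl and 3708 and 4282 in PRC1cKO.

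The glucose transporters moved apart. Slc2a3 was listed at 36.8 and 33.5 TPM in PRC1ctrl and 47.7 and 55.8 in PRC1cKO (log2 fold change 0.54, SE 0.13, adjusted p = 0.0229). Slc2a1 was listed at 29.7 and 30.7 TPM in PRC1ctrl and 20.6 and 21.8 in PRC1cKO (log2 fold change -0.49, SE 0.12, adjusted p = 0.0243). Under median-of-ratios scaling the rise of Slc2a3 stood at 0.78 (adjusted p = 0.00819), whereas Slc2a1 was at -0.26 and no longer passed (0.113). The Slc2a1 share of the pair was 44.7% and 47.8% in PRC1ctrl and 30.2% and 28.1% in PRC1cKO, a ratio that no scaling of a library can change. Without PRC1ctrl replicate 2, PRC1cKO replicate 1 or PRC1cKO replicate 2, neither gene was called, with adjusted p of 0.0619, 0.0574 and 0.126 for Slc2a3 and 0.0792, 0.127 and 0.0834 for Slc2a1.

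Hk1 was listed at 55.3 and 61.1 TPM in PRC1ctrl and 37.4 and 44.0 in PRC1cKO (log2 fold change -0.51, adjusted p = 0.0276), and Hif1a at 34.0 and 31.1 against 23.6 and 21.6 TPM (log2 fold change -0.51, adjusted p = 0.0253). Both were lower in PRC1cKO by a margin that passed the test in TPM but not after median-of-ratios scaling (adjusted p = 0.111 for Hk1 and 0.15 for Hif1a). Hk1 was not called without PRC1ctrl replicate 2 (adjusted p = 0.085), PRC1cKO replicate 1 (0.15) or PRC1cKO replicate 2 (0.0517). Hif1a was not called without PRC1ctrl replicate 1 (adjusted p = 0.0819), PRC1cKO replicate 1 (0.0855) or PRC1cKO replicate 2 (0.126). Hk2 was listed at 20.3 and 19.0 against 17.3 and 17.3 TPM, with an interval of -0.48 to 0.14, and Gpi1 at 818 and 774 against 641 and 782.

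Pfkfb2, the heart-type PFKFB enzyme, was listed at 11.7 and 12.8 TPM in PRC1ctrl and 4.82 and 5.64 in PRC1cKO, a mean 2.34 times lower (log2 fold change -1.09, SE 0.16, adjusted p = 0.00433). It was called under all 14 alternatives, with log2 fold changes from -1.21 to -0.81. Part of its annotated sequence, 15.2% of its 100-base words, is shared with the genes Gm29427 and Yod1. Pfkfb3, at 36.6 and 37.8 TPM in PRC1ctrl and 27.3 and 31.3 in PRC1cKO, lay lower in both PRC1cKO libraries without passing the test (log2 fold change -0.34, adjusted p = 0.0868). Pfkm was listed at 31.9 and 35.3 against 30.9 and 36.8 TPM and Pfkp at 17.6 and 17.1 against 13.8 and 16.9. Pfkl and Pfkfb4 lay higher in both PRC1cKO libraries, Pfkl at 5.11 and 7.25 against 9.17 and 9.13 TPM and Pfkfb4 at 3.16 and 3.24 against 4.33 and 4.42. Neither passed the test (adjusted p = 0.0799 and 0.144), but both did after median-of-ratios scaling (0.0274 and 0.0395). Pfkfb1 lay lower in both, at 8.61 and 8.13 against 6.75 and 7.61 TPM (adjusted p = 0.364).

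Tpi1 was listed at 33.1 and 29.8 TPM in PRC1ctrl and 40.1 and 45.7 in PRC1cKO (log2 fold change 0.44, SE 0.13, adjusted p = 0.0431). Its call was lost without PRC1ctrl replicate 2 (adjusted p = 0.154), PRC1cKO replicate 1 (0.094) or PRC1cKO replicate 2 (0.203). The abundant enzymes were close between the labels in TPM. Aldoa was listed at 308 and 332 against 355 and 426 TPM, Gapdh at 648 and 645 against 707 and 868, and Pgam1 at 356 and 335 against 397 and 411. Pkm was listed at 315 and 321 against 338 and 394 TPM and Ldha at 79.2 and 69.3 against 84.4 and 83.3. In each of these 5 genes both PRC1cKO libraries lay above both PRC1ctrl libraries, by 0.18 to 0.28 on the log2 scale with adjusted p of 0.137 to 0.293. They passed the test only after median-of-ratios scaling, at 0.42 to 0.52, a scaling that moved the median of all genes from -0.19 to 0.028. Eno1, at 538 and 557 against 504 and 596 TPM, had a log2 fold change of 0.0016 (95% interval -0.29 to 0.29), and Eno3 was listed at 15.7 and 17.9 against 12.6 and 13.9.

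The WT falls of lactate and pyruvate genes had no called counterpart here. Ldha had an interval of -0.11 to 0.46 on the log2 scale, which leaves out the WT fall of 1.95, and Ldhb was listed at 73.9 and 48.8 against 74.2 and 56.2 TPM. Pdk1 was listed at 74.7 and 76.5 TPM in PRC1ctrl and 56.9 and 69.8 in PRC1cKO (log2 fold change -0.26, 95% interval -0.58 to 0.06), Pdk2 at 6.22 and 8.20 against 7.93 and 7.75, and Pdk3 at 118 and 102 against 119.8 and 119.8. Slc16a1 was listed at 34.9 and 33.5 against 33.9 and 34.8 TPM, with overlapping groups. Pgk1 was listed at 23.5 and 27.9 against 25.8 and 22.9 TPM. Among markers of other cells, the Sertoli cell sum was 52.9 and 39.4 TPM in PRC1ctrl and 65.0 and 50.0 in PRC1cKO. The Leydig cell sum was 397 and 82.1 against 73.2 and 20.6. For 6 markers of differentiating spermatogonia the sum was 186 and 223 against 331 and 375. Of these 6, 5 were called higher and 1 lower, Stra8, where 5.87% and 26.7% of all genes were. Of other markers tested, 2 of 5 for spermatocytes and 2 of 12 for undifferentiated spermatogonia fell. All 3 red blood cell markers tested also fell, having reached the required level only through PRC1ctrl. Their part in the differences was not tested.

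**Figure D3:**
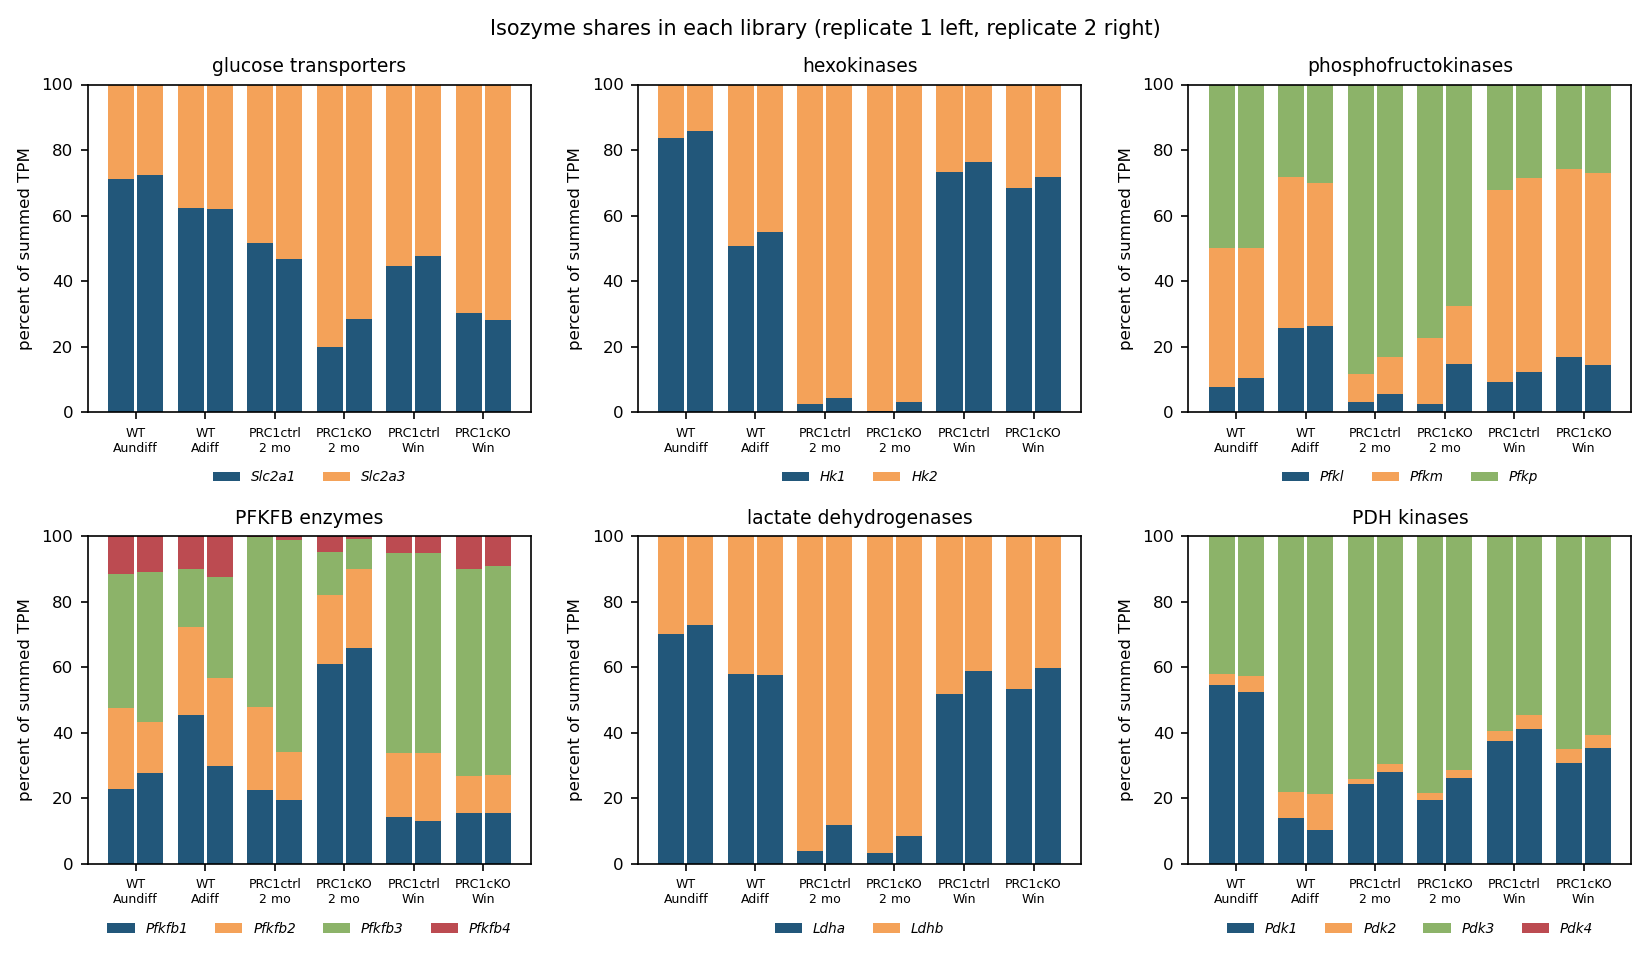
Share of each isozyme in the summed TPM of its family, in percent, for 6 families and 12 libraries, with the replicates of a group side by side. Hk1 leads the hexokinases in WT Aundiff and shares the sum with Hk2 in WT Adiff, Pdk3 replaces Pdk1 as the leading kinase in WT Adiff, and the untreated PRC1 libraries are set apart by their Hk2 and Ldhb shares, at least 95.6% and 88.2%.

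The isozyme shares set the untreated PRC1 libraries apart from all others. Hk2 made up 14.2% to 49.3% of the hexokinase pair in the 8 TruSeq libraries and 95.6% to 99.5% in the 4 Smart-Seq2 libraries. Ldhb made up 27.0% to 48.3% of its pair in the first and 88.2% to 96.6% in the second. Both labels lay in these ranges. The 4 libraries differ from the other 8 in kit and cell number and are the only untreated ones of the mixed strain, and the part of each in the shares was not tested. After Win18,446, Hk1 had 73.2% and 76.3% of its pair in PRC1ctrl and 68.4% and 71.8% in PRC1cKO, and Ldha 51.7% and 58.7% against 53.2% and 59.7% of its own.

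A separate behaviour was shown by Pgam2 and the testis isozymes. Pgam2 was listed at 12.1 and 16.5 TPM in WT Aundiff and 9.25 and 8.64 in WT Adiff (log2 fold change -0.61, adjusted p = 0.0674). In WT it passed as lower under median-of-ratios scaling (adjusted p = 0.0326) and quantile normalization (0.0415). At 2 months it was listed at 10.7 and 45.9 TPM in PRC1ctrl and 0.13 and 0.19 in PRC1cKO (log2 fold change -4.33, SE 0.72, adjusted p = 0.0553). After Win18,446 it was listed at 3.12 and 3.37 against 0.07 and 0.09 TPM (log2 fold change -1.97, SE 0.17, adjusted p = 0.00176). Both PRC1cKO libraries were near 0 in each pair. Pgam2 thus reached the level required for testing only through PRC1ctrl, and after Win18,446 it was not tested when either PRC1ctrl library was left out or a mean of at least 5 TPM was required, so it stands among the 5 members that fell with this limit. On the log2(TPM + 1) scale values this low are compressed, so these fold changes understate the difference. At 2 months Pgam2 missed the threshold narrowly and passed it with a pseudocount of 0.1, median-of-ratios scaling or quantile normalization (adjusted p = 0.0305, 0.00211 and 0.00596).

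Several isozymes that spermatids make for their own glycolysis were lower in PRC1cKO as well. Pgk2 was listed at 30.1 and 129 TPM in PRC1ctrl and 0.12 and 1.06 in PRC1cKO at 2 months (log2 fold change -5.39, adjusted p = 0.0421) and Ldhc, the sperm lactate dehydrogenase, at 26.7 and 105 against 1.67 and 0.90 (log2 fold change -4.59, adjusted p = 0.0458). Gapdhs, the sperm GAPDH, was listed at 6.71 and 31.2 against 0.02 and 0 TPM (adjusted p = 0.0716), and Ldhal6b at 3.44 and 8.78 against 0.35 and 0 (adjusted p = 0.0908). Of the 6 testis isozymes tested at 2 months 2 fell, where 1.94% of all genes did, and of the 7 tested after Win18,446 5 fell, where 26.7% of all genes did. After Win18,446, Gapdhs, Pgk2, Aldoart2 and Ldhal6b reached the level required for testing only through PRC1ctrl. So did Gapdhs and Ldhal6b at 2 months, and also the 2 genes called there, Pgk2 and Ldhc. A gene of this kind could enter only as lower, and these counts are a description. After Win18,446 Gapdhs fell by 2.75 on the log2 scale, Pgk2 by 1.72, Aldoart2 by 1.17, Ldhal6b by 1.02 and Ldhc by 0.91. Aldoart2, a testis aldolase, was listed at 1.70 and 1.22 TPM in PRC1ctrl and 0.10 and 0.08 in PRC1cKO, and Aldoart1 at no more than 1.76 TPM in any library. Pdha2, the testis subunit of pyruvate dehydrogenase, and Eno4 did not pass the test in either pair, with 8.51 and 10.5 against 9.80 and 11.1 TPM for Pdha2 and 10.1 and 8.86 against 6.48 and 7.90 for Eno4 after Win18,446. In WT 1 of 8 fell, where 14.7% of all genes did. This was Gapdhs, from 34.4 and 33.7 to 20.3 and 25.9 TPM (adjusted p = 0.0484). Of the 9 genes in this list, 8 were found in the table.

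Most of the spermatid markers tested fell in PRC1cKO too. Prm1, which packs sperm DNA, was listed at 280.4 and 684 TPM in PRC1ctrl and 0.21 and 0.99 in PRC1cKO at 2 months, and at 32.05 and 36.0 in PRC1ctrl and 0 and 0.19 in PRC1cKO after Win18,446. Of the 7 spermatid markers 6 were tested in each pair and 5 fell in each, where 1.94% of all genes fell at 2 months and 26.7% after Win18,446. Among these were Prm1, Prm2, Tnp2 and Odf1, which likewise reached the required level only through PRC1ctrl. Spaca1 overlapped between the labels, at 5.40 and 12.9 against 6.74 and 8.62 TPM at 2 months. After Win18,446 it was listed at 7.50 and 6.85 against 8.54 and 6.18 TPM. Replicate 2 of PRC1ctrl at 2 months had both the highest spermatid sum of all libraries, 1763 TPM, and the highest levels of Pgam2, Pgk2, Ldhc and Ldhal6b. Other testis isozymes peaked elsewhere. Gapdhs was listed at 31.2 TPM there and at 34.4 and 33.7 in WT Aundiff, where Aldoart1 and Aldoart2 were also highest. Pdha2 was highest in PRC1cKO at 2 months and Eno4 in PRC1ctrl after Win18,446. The part of spermatid RNA in the Pgam2 difference was not tested.

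**Figure D4:**
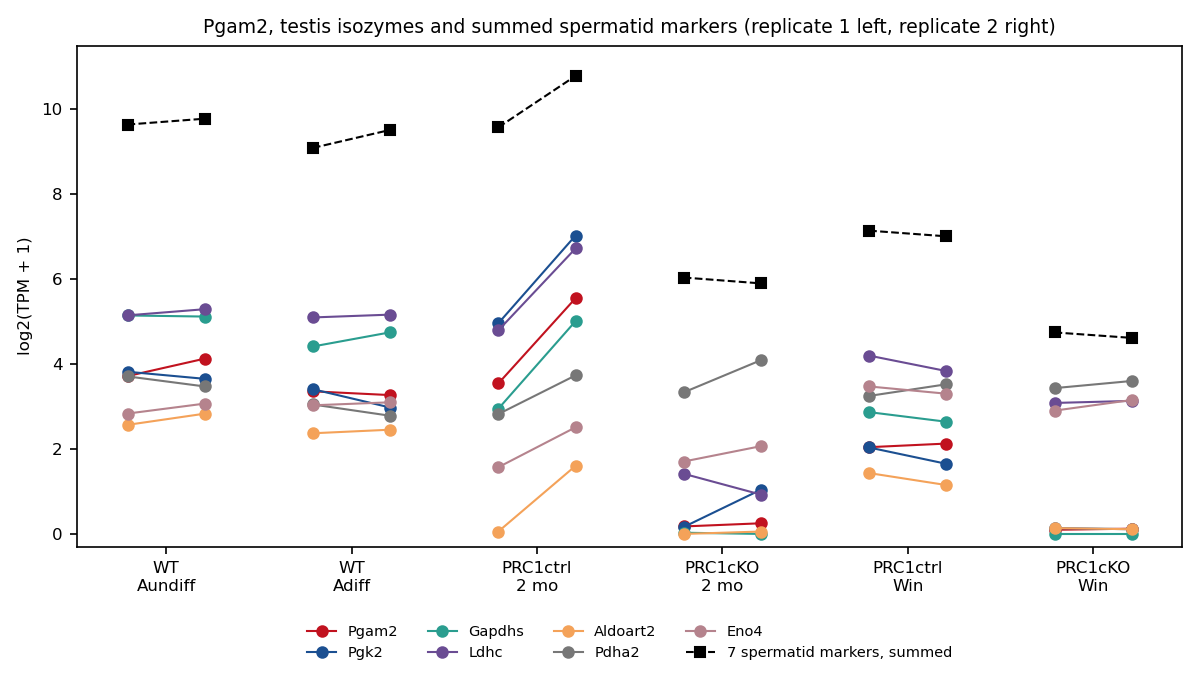
Levels on the log2(TPM + 1) scale of Pgam2, 6 testis isozymes and the summed TPM of 7 spermatid markers in the 12 libraries, with lines joining the replicates of a group. Pgam2, Pgk2, Gapdhs and Aldoart2 are near 0 in the libraries labelled PRC1cKO, where the spermatid sum is also lowest, while Pdha2 and Eno4 are not.

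The other lists were compared between the PRC1 labels in the same way. At 2 months no gene of the other isozymes, transporters, pyruvate entry, pentose phosphate or hypoxia lists passed the test. After Win18,446, Bsg, the basigin chaperone that brings MCT1 to the membrane, rose from 223 and 212 to 289 and 301 TPM (log2 fold change 0.44, adjusted p = 0.02) and Emb fell from 33.1 and 28.5 to 22.8 and 19.2 (log2 fold change -0.53, adjusted p = 0.0343). They were the only genes called of 11 tested in that list. In the hypoxia list 7 of 18 fell and 1 rose (median log2 fold change -0.30, against -0.19 over all genes), where 26.7% and 5.87% of all genes did. Epas1, which encodes HIF2A, fell from 35.7 and 30.2 to 9.87 and 11.8 TPM (log2 fold change -1.52, adjusted p = 0.00232) and Arnt, the partner of both HIF subunits, from 36.5 and 38.7 to 19.1 and 20.8 (log2 fold change -0.88, adjusted p = 0.00413). Kdm3a and Ankrd37 fell by 0.86 and 0.80 on the log2 scale. Of 10 genes of pyruvate entry 1 fell, Pdpr, the regulatory subunit of pyruvate dehydrogenase phosphatase, from 22.4 and 24.1 to 15.0 and 15.7 TPM, and no gene of the pentose phosphate branch or the other isozymes was called.

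Whether the PRC1cKO difference itself changed with treatment was tested by an interaction term over the 8 PRC1 libraries. No member passed at an adjusted p under 0.05, where 7.81% of 18354 genes did. At an unadjusted p under 0.05, 4541 of the 18354 genes passed and 4 of the 30 members. These were Pgam2 (0.024), Pfkfb2 (0.0248), Pfkfb1 (0.0396) and Hk2 (0.0433). Pgam2 passed when replicate 1 of untreated PRC1ctrl (adjusted p = 0.00626) or replicate 2 (0.0409) was left out, and Pfkfb3 without that replicate 1 (0.0444). Pfkfb2 passed without replicate 1 of untreated PRC1cKO (0.0475). Pgam2 was near 0 in the PRC1cKO libraries under both treatments, so its difference is bounded by its level in PRC1ctrl, which was lower after Win18,446. Treatment and kit change together in this term and cannot be told apart.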

How the data were processed

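The deposited table gives TPM per gene for 12 libraries of sorted, pooled spermatogonia, 2 biological replicates a group, with no read totals. Per the submitters' processing notes and the study's methods, the authors trimmed reads with Trim Galore 0.6.6, aligned them with HISAT2 2.2.1 to GRCm38, filtered them on mapping quality with SAMtools 1.9 and estimated TPM with RSEM 1.3.3. The gene annotation used for TPM is not given in the sources used here. Because TPM is a share of the library, a change in a few abundant genes moves all others, and RSEM divides reads between a gene and its pseudogenes.

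Gene members and lists were chosen with earlier results of these data known. Values were taken as log2(TPM + 1), genes with at least 1 TPM in at least 2 of the libraries fitted were kept, and groups were compared with limma 3.58.1 in R 4.3.3 (trend and robust moderation), each comparison over its own 4 libraries and the interaction over 8. Benjamini-Hochberg adjustment ran across every gene kept. Log2 fold changes are on this scale and understate the change of low genes. Calls needed an adjusted p under 0.05, and for the 2-fold rule also a log2 fold change beyond 1 in size. The scripts were tested on simulated data. Replicates are separate pools of cells, so p-values measure the spread between such pools.

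Per-library values are given for the 21 members called in any comparison and for Aldoa, Gapdh, Pgk1 and Pgam1, with ranges for most others. In each other list, at most 4 called genes with the largest change are named; genes named beyond this were chosen after their values were seen. Alternatives were a pseudocount of 0.1, no filter, a mean of at least 5 TPM, median-of-ratios scaling, quantile normalization, a replicate block, named copies summed into their genes, pseudogenes with shared sequence summed likewise (chosen after seeing the data), moderation without trend or robust fitting, a fit over all 12 libraries and leaving out each library. Shared sequence was counted as 100-base words in the annotated transcripts of GRCm38. Promoter windows came from RefSeq.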

Additional observations from a re-analysis of the deposited data

How the results depend on the processing

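Of the 14 alternatives tried in WT, the 12 lower members stayed within 1.5 times that count in all but 1, and no member called in a comparison changed sign under any alternative. The members' median at 2 months did turn, from 0.46 to -0.036, without PRC1ctrl replicate 1. With all 12 libraries fitted together, 7 members were lower and 1 higher in WT, and 5 became 3 higher under median-of-ratios scaling, 3 under quantile normalization and 3 in moderation without trend or robust fitting. Leaving out 1 library gave 2 to 5 higher members in WT at adjusted p and 1 to 2 past 2-fold, the 2 without Adiff replicate 1, where Eno3 joined Hk2. At 2 months, where the count was 0, 1 member (Pgam2) was lower with a pseudocount of 0.1, median-of-ratios scaling or quantile normalization, under both the adjusted p and the 2-fold rule. The fit over all 12 libraries gave 2 lower (Pgam2 and Pfkfb3) and 1 higher (Pfkfb1) there, also under both rules. At an unadjusted p under 0.05, 7 members and 4294 of 13953 genes passed in that fit at 2 months, against 2 and 1985 in the main fit. The shares of all genes given for the main fit do not apply to it. After Win18,446, 9 members were higher and 2 lower under median-of-ratios scaling, 4 and 2 under quantile normalization, and 0 and 2 with no filter on low values or with all 12 libraries fitted, while moderation without trend or robust fitting gave 1 higher. Leaving out 1 library gave 0 to 2 higher and 2 to 3 lower members there, and 1 to 2 lower past 2-fold, the 1 without PRC1cKO replicate 1 or either PRC1ctrl library. That last count was 1 under median-of-ratios scaling and quantile normalization, where Pfkfb2 changed by less than 2-fold, and 1 with a mean of at least 5 TPM, where Pgam2 was not tested. For the interaction, 2 members (Pgam2 and Pfkfb3) passed under median-of-ratios scaling and under quantile normalization, and 0 to 2 when 1 library was left out. The cause of these shifts was not tested.

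The replicate numbers are shared by the groups, but nothing in the labels says that same-numbered libraries share an origin. With the replicate number as a block, 4 members were higher at 2 months (Pfkfb1, Aldoa, Eno1 and Slc16a1) and 2 lower (Pgam2 and Pfkfb3). Of these, 2 and 2 passed 2-fold. The block raised the calls of all genes too. At an unadjusted p under 0.05, 11 members and 4648 of 13953 genes passed with it at 2 months, against 2 and 1985 without it. The shares of all genes given for the main fit therefore do not apply to these counts. In WT the block gave 7 higher members, with Pgk1 (adjusted p = 0.0466) and Pgam1 (0.025) added, and after Win18,446 6 lower, with Pfkfb3 added (0.0452). Deviations from the group means correlated at 0.158 in WT, 0.381 at 2 months and 0.122 after Win18,446, over 2 pairs each.

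TPM carries no read number, so what the depth would allow to be detected among low members is unknown. With 2 libraries a group, an exact two-sided permutation test cannot go below p = 0.333, and the calls rest on the spread shared across genes by limma.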
